A study of Mus musculus with 9 samples.

Results

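The 10 genes described here encode digestive enzymes of the pancreatic acinar cell: Ctrb1, Prss2, Pnlip, Pnliprp1, Cpa1, Cpb1, Cela1, Cela2a, Cela3b and Cel. They were taken by gene symbol from a table of 55468 genes, and all 10 were found. They had been selected on their measured levels in these same libraries, in which they were high in 2 libraries, so their pattern is a description and carries no test. All values come from RNA sequencing of mouse intestinal tract in a study of diets short of methionine, tryptophan or niacin in a colitis model. In that model mice drink dextran sulfate sodium (DSS), which damages the lining of the gut.

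Mice of 8 of the 9 conditions drank DSS, starting at day 18. In the libraries of day 28, R had been on a normal diet, 1K on a diet without enough methionine, 2K on a diet deficient in tryptophan and niacin, and 3K on a diet deficient in all 3 nutrients. At day 33, RR had stayed on the normal diet, while 1KR, 2KR and 3KR had gone from the 1K, 2K and 3K diets back to the normal diet at day 28. C received normal feed and no DSS and was collected at day 34. The sources used here do not state strain, genotype, sex or age, which stretch of gut was sampled, or whether a library came from 1 animal or several. Each condition has 1 library, so the spread between animals is unknown, and each fold compares 2 libraries and not 2 diets.

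Acinar cells make up most of the exocrine pancreas. They pack proteases, lipases, amylases and nucleases into zymogen granules and release them through the pancreatic duct into the duodenum when a meal triggers cholecystokinin and vagal signals. Most of the proteases leave the cell as inactive zymogens: enteropeptidase on the duodenal surface cuts trypsinogen to trypsin, and trypsin then activates the others. Transcription of these genes in acinar cells depends on PTF1, a complex of PTF1A, an E protein and RBPJL that binds an E-box paired with a TC box. The intestine receives the enzymes as proteins in its lumen.

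Because the 10 genes moved together, their promoters are shown for the members that bear most on the comparison. The window runs from 250 bases before to 50 bases after the transcript start (RefSeq, build GRCm38.p6), and all 10 members had an entry. Capitals mark the E-box (CACCTG, or CAGGTG on the other strand), the TC box (TTTCCC, or GGGAAA on the other strand) and the TATA motif (TATAAA, searched on the given strand alone). Cela1 (chr15:100687871-100688170, minus strand) and Cel (chr2:28563354-28563653, minus strand) are the members with an E-box of this form and a TC box within 30 bases of each other. Prss2 (chr6:41521526-41521825, plus strand) holds each of the 3 motifs but no such pair, and Ctrb1 (chr8:111690961-111691260, minus strand), the most abundant member, has a single TC box as its only match. Other forms of the E-box were not searched, and the letters cagctg lie close to the TC box in Ctrb1 and Cpa1.
Cela1: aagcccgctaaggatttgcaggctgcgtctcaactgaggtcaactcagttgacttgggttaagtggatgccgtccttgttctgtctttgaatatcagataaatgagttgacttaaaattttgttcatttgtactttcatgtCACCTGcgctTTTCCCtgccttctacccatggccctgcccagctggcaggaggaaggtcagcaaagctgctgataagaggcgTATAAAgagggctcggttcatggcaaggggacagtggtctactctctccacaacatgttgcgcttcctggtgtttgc
Cel: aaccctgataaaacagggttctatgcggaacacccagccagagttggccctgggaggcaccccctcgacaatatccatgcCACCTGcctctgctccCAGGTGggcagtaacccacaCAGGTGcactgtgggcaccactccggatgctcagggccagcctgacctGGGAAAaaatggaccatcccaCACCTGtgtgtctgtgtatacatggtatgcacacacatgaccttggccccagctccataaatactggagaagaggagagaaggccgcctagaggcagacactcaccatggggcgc
Prss2: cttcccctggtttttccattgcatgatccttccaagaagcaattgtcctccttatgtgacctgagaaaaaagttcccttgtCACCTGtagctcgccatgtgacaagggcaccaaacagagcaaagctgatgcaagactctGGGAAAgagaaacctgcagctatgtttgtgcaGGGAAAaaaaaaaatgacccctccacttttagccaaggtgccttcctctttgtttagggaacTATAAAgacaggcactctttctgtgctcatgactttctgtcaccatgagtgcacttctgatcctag
Ctrb1: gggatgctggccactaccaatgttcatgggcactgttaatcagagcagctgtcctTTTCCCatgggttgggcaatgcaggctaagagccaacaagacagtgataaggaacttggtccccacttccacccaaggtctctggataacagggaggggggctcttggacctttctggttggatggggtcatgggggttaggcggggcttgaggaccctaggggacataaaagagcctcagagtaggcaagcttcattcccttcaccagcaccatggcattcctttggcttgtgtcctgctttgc

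An E-box of the form searched was present in 6 of the 10 member promoters and in 20.2% of the 32851 promoters of the same length. The TC box was present in 6 members and in 25.2% of all promoters. A TATA motif was present anywhere in the window in 4 members (Prss2, Pnlip, Cpb1 and Cela1) and in 8.32% of all. It lay at -30 to -25 from the start in Pnlip, at -16 to -11 in Prss2, and after the start, at 36 to 41, in Cpb1. An E-box of that form paired with a TC box occurred in 2 members and in 1.03% of all promoters. In Cela1 the E-box lay at -109 to -104 and the TC box at -99 to -94 from the start, and the TATA motif at -27 to -22. Cel had 4 E-boxes, the nearest of them at -65 to -60, and a TC box at -86 to -81. The Pnliprp1 window held none of these letters. The map of these matches shows the 10 members side by side. A match is a run of letters and not a measured binding site.

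**Figure D1:**
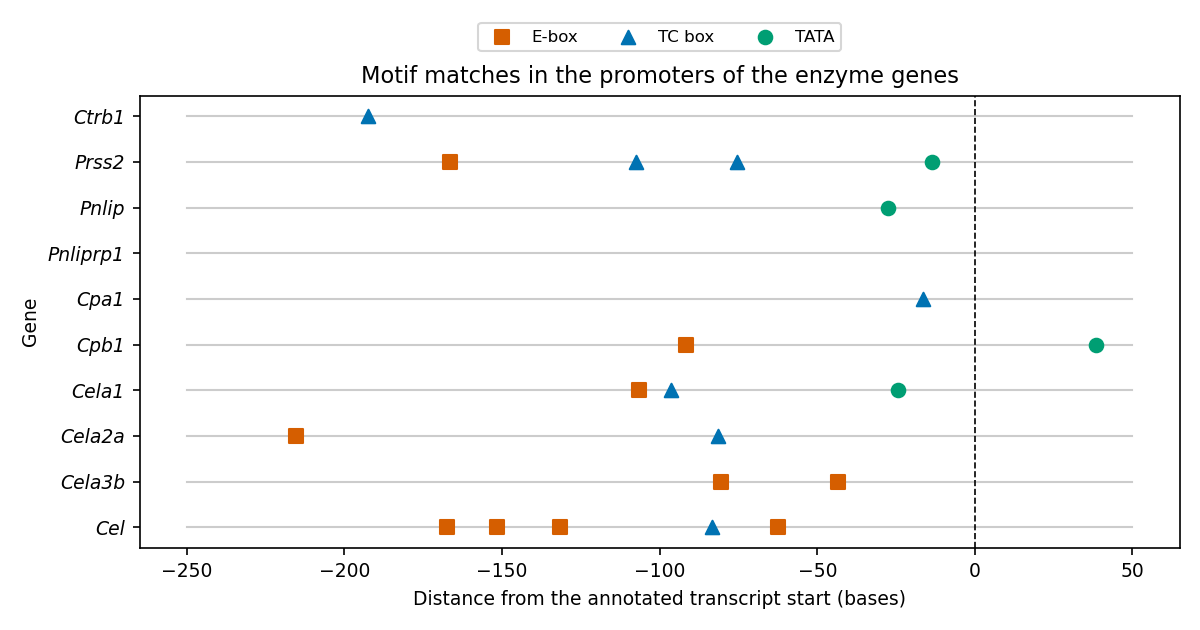
Matches to 3 short motifs in the promoters of the 10 enzyme genes. The horizontal axis is the distance from the annotated transcript start in bases (dashed line), each gray line is 1 promoter, and symbols stand for the E-box form searched, the TC box and the TATA motif. That E-box form and the TC box are close together in Cela1 and Cel, and Pnliprp1 has no match.

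Levels are in FPKM, that is fragments counted per kilobase of transcript and adjusted for library size, so genes of different length can be set beside each other. The libraries held an estimated 15.5 M (3KR) to 33.9 M (2KR) fragments and 15908 to 17256 genes at 1 FPKM or more. Intestinal epithelial markers were present in all of them: the summed FPKM of 7 such genes was 1538 in 2K, 2228 in 3K and 2563 to 5040 in the other 7. The 2K library stands apart because 11 stomach genes summed to 17839 FPKM and 13 liver genes to 27025, against at most 33.5 and 412.2 in any other library. The 3K library held neither: its sums were 25.69 and 293.9. 3KR had the lowest estimated depth and the highest summed FPKM (973592, against 597541 in C, the lowest). In tissue RNA, fewer cells of a type and less RNA per cell cannot be told apart.

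The 10 enzyme genes were abundant in 2K and 3K and near or below 1 FPKM in most other libraries. Their FPKM summed to 41143 in 2K and 51201 in 3K. The other sums were 5.79 in R, 7.01 in 1K, 10.05 in RR, 23.9 in 1KR, 8.96 in 2KR, 27.3 in 3KR and 7.51 in C. As a share of all summed FPKM this was 5.39% in 2K and 7.75% in 3K, and between 0.000867% (1K) and 0.00336% (1KR) elsewhere. No member's lowest value in 2K and 3K came near its highest value in the other 7 libraries: Cela1, the closest, was at 493.9 FPKM in 2K and at most 10.1 outside 2K and 3K. The heat map of the members' levels shows these 2 columns against the rest.

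**Figure D2:**
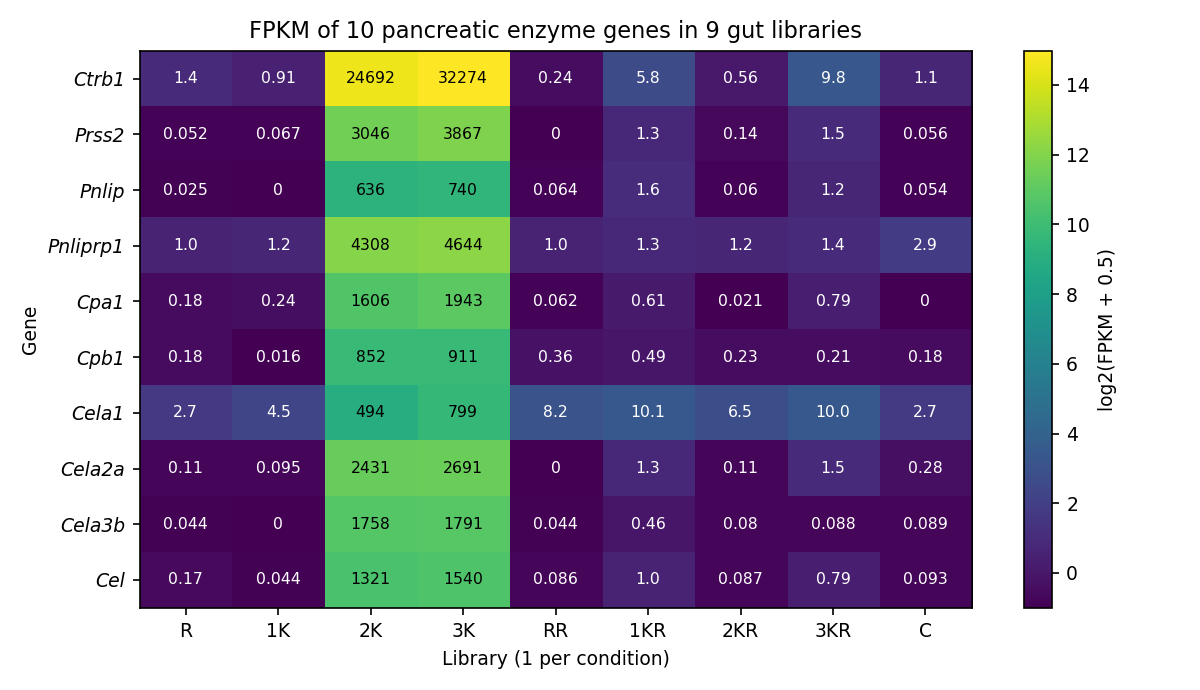
FPKM of the 10 enzyme genes (vertical axis) in the 9 libraries (horizontal axis, 1 library per condition). Numbers are FPKM and the color gives log2(FPKM + 0.5); every gene is at 493.9 FPKM or more in 2K and 3K and at 10.1 FPKM or less in the other 7 libraries.

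Among the serine proteases, Ctrb1, chymotrypsinogen B (ENSMUSG00000031957, chr8:111686519-111691010, minus strand, 7 exons), had the highest level. It was at 24692 FPKM in 2K and 32274 in 3K, and at 1.36 in R, 0.910 in 1K, 0.237 in RR, 5.80 in 1KR, 0.560 in 2KR, 9.83 in 3KR and 1.12 in C. It was the gene with the second highest FPKM of the whole table in both 2K and 3K. Its FPKM was 18209-fold higher in 2K than in R and 23801-fold higher in 3K than in R. Among the other 7 libraries 1KR and 3KR were the highest and RR the lowest, where its value corresponds to an estimated 4.97 fragments.

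Prss2, a trypsinogen (ENSMUSG00000057163, chr6:41521787-41525079, plus strand, 5 exons), encodes the zymogen whose product activates the others. It was at 3046 FPKM in 2K and 3867 in 3K, and at 0.052 in R, 0.067 in 1K, 1.33 in 1KR, 0.143 in 2KR, 1.46 in 3KR and 0.056 in C, and it was listed at 0 in RR. In R, 1K and C these values correspond to about 1 fragment each, so no fold is given. Prss2 belongs to a family of closely related trypsinogen genes. Its transcript was 90.1% identical to that of Try4, 89.9% to Try5 and 89.3% to Try10, with identical runs of up to 81 bases, so the split of fragments among these trypsinogens is uncertain. Try4 and Try5 had the same 2 high libraries: Try4 was at 953 FPKM in 2K and 1019 in 3K, and Try5 at 3665 and 3464.

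The 3 pancreatic elastases differed most from one another outside 2K and 3K. Cela2a, a chymotrypsin-like elastase (ENSMUSG00000058579, chr4:141814962-141826160, minus strand), was at 2431 FPKM in 2K and 2691 in 3K. Elsewhere it was at 0.109 in R, 0.095 in 1K, 1.29 in 1KR, 0.109 in 2KR, 1.49 in 3KR and 0.284 in C, and it was listed at 0 in RR. Cela3b (ENSMUSG00000023433, chr4:137420999-137430540, minus strand) was at 1758 FPKM in 2K and 1791 in 3K, at most 0.458 (1KR) in the others, and listed at 0 in 1K. The remaining values of Cela3b were 0.044 in R, 0.044 in RR, 0.080 in 2KR, 0.088 in 3KR and 0.089 in C, each from an estimated 1 or 2 fragments. Its neighbor Cela3a, 11.2 kb away on chromosome 4, had 90.4% transcript identity with an identical run of 163 bases, so fragments could be assigned to either. Cela3a itself was at 2.74 FPKM in 2K and 3.31 in 3K. It is named here as the nearest copy of Cela3b, after its values were seen.

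Cela1, also an elastase (ENSMUSG00000023031, chr15:100674421-100687921, minus strand), had the smallest contrast. It was at 493.9 FPKM in 2K and 799 in 3K, and at 2.66 in R, 4.47 in 1K, 8.17 in RR, 10.1 in 1KR, 6.52 in 2KR, 10.01 in 3KR and 2.75 in C. Its FPKM was 186-fold higher in 2K than in R and 300-fold higher in 3K than in R. Cela1 was measured above 1 FPKM in all 9 libraries, with an estimated 73.7 to 296 fragments outside 2K and 3K. The 4 libraries of day 33 (6.52 to 10.1 FPKM) lay above R, 1K and C (2.66 to 4.47 FPKM). Of all genes that reached 1 FPKM in any of these 7 libraries, 2.68% separated in this way, and among the 10 members Pnlip and Cpb1 did so too, at far lower levels. The other 2 libraries of day 28, 2K and 3K, were higher than all of these. Cela1 made up 1.20% of the members' summed FPKM in 2K and 1.56% in 3K, but 36.6% (C) to 81.3% (RR) in the other libraries.

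The carboxypeptidases trim amino acids from the ends of the peptides that the serine proteases leave. Cpa1, carboxypeptidase A1 (ENSMUSG00000054446, chr6:30639218-30645363, plus strand), takes off aromatic and branched residues. It was at 1606 FPKM in 2K and 1943 in 3K, and at 0.183 in R, 0.240 in 1K, 0.062 in RR, 0.612 in 1KR, 0.021 in 2KR and 0.787 in 3KR, and it was listed at 0 in C. Cpb1, carboxypeptidase B1 (ENSMUSG00000011463, chr3:20248264-20275733, minus strand), takes off basic residues. It was at 852 FPKM in 2K and 911 in 3K, and at 0.179 in R, 0.016 in 1K, 0.364 in RR, 0.492 in 1KR, 0.228 in 2KR, 0.210 in 3KR and 0.178 in C. Both were below 1 FPKM in all 7 libraries outside 2K and 3K. Unlike Cpa1, Cpb1 was lower in 3KR than in RR.

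The lipases of the set act on different fats. Pnlip, pancreatic triglyceride lipase (ENSMUSG00000046008, chr19:58652498-58681788, plus strand), was at 636 FPKM in 2K and 740 in 3K. It was at 0.025 in R, 0.064 in RR, 1.55 in 1KR, 0.060 in 2KR, 1.16 in 3KR and 0.054 in C, and it was listed at 0 in 1K. Cel, the bile salt-dependent carboxyl ester lipase (ENSMUSG00000026818, chr2:28555795-28563403, minus strand), was at 1321 FPKM in 2K and 1540 in 3K, and at 0.170 in R, 0.044 in 1K, 0.086 in RR, 1.03 in 1KR, 0.087 in 2KR, 0.790 in 3KR and 0.093 in C. In both genes 1KR and 3KR were the highest of the 7 other libraries.

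Pnliprp1, pancreatic lipase-related protein 1 (ENSMUSG00000042179, chr19:58728887-58744169, plus strand), lies 47.1 kb from Pnlip and has little known lipase activity. It was at 4308 FPKM in 2K and 4644 in 3K, second among the members in both. Elsewhere it was at 1.01 in R, 1.16 in 1K, 1.02 in RR, 1.29 in 1KR, 1.16 in 2KR, 1.44 in 3KR and 2.88 in C. Its FPKM was 4273-fold higher in 2K than in R and 4607-fold higher in 3K than in R. Outside 2K and 3K, C was the highest, at 2.86-fold the FPKM of R and 2.83-fold that of RR, from an estimated 121 fragments in C. Its transcript shared 70.5% identity with that of Pnlip and no identical run longer than 23 bases.

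Against R, all 10 members were at least 2-fold higher in 2K and none lower, where 14.7% of the 19035 genes at 1 FPKM or more in either library were higher and 14.1% lower. Folds in these counts are on the scale of log2(FPKM + 0.5), which understates the change of genes near 0. The median difference over the 10 was 11.34 (7.29 for Cela1 to 13.70 for Ctrb1), beside 0.02 over all genes. In 3K against R all 10 were higher and none lower, with 11.6% of all genes higher and 13.4% lower. Their median difference was 11.53 (7.98 to 14.09), beside 0.00. Since the members were chosen for being high in these libraries, these counts hold no information beyond the choice. 1K, at the same day without enough methionine alone, had 3 members at 1 FPKM or more in it or in R, and 0 of them were 2-fold higher or lower. The shares over all genes there were 7.17% higher and 8.63% lower, and the members' differences ranged from -0.40 to 0.65.

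The 2 high libraries were close to each other in the members' levels. In 3K against 2K 0 of 10 members were 2-fold higher or lower, where 5.99% of all genes were higher and 9.42% lower. All 10 were nevertheless somewhat higher in 3K, by 1.02-fold (Cela3b) to 1.62-fold (Cela1) in FPKM. The direction was the same under each scaling tried: the ratios ran from 1.04 to 1.66 with median-of-ratios scaling, from 1.18 to 1.87 per summed FPKM, and from 1.14 to 1.80 per summed FPKM without the pancreatic, stomach and liver genes. With 1 library each, whether these ratios exceed the spread between animals was not tested.

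The proportions among the enzymes were also much alike in 2K and 3K. Ctrb1 made up 60.0% of the members' summed FPKM in 2K and 63.0% in 3K, Pnliprp1 10.5% and 9.07%, and Prss2 7.40% and 7.55%. Cela2a made up 5.91% and 5.26%, Cela3b 4.27% and 3.5%, Cpa1 3.90% and 3.80%, and Cel 3.21% and 3.01%. Cpb1 held 2.07% and 1.78% and Pnlip 1.55% and 1.44%. By contrast, the liver genes in 3K were at 0.0109 and the stomach genes at 0.00144 of their summed FPKM in 2K. The plot of 3K to 2K ratios sets the members beside these lists. The members' level in 3K was as high as in 2K, in a library without the stomach and liver signal of 2K. Of 6 genes of Brunner glands and duodenum, however, 4 were at least 2-fold higher and 1 lower than in R in 2K, and 3 higher and 1 lower in 3K. Tff2 was at 1127 FPKM in 2K, 57.1 in 3K and at most 0.18 elsewhere, and Pdx1, also a pancreatic gene, at 22.0, 4.15 and at most 1.84. Onecut2 was at 13.1 in 2K and 2.27 in 3K but at 7.44 in 1KR and 5.59 in RR. The gene lower in both was Ucn3, named after its values were seen. The part of these tissues in the members' values was not tested.

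**Figure D3:**
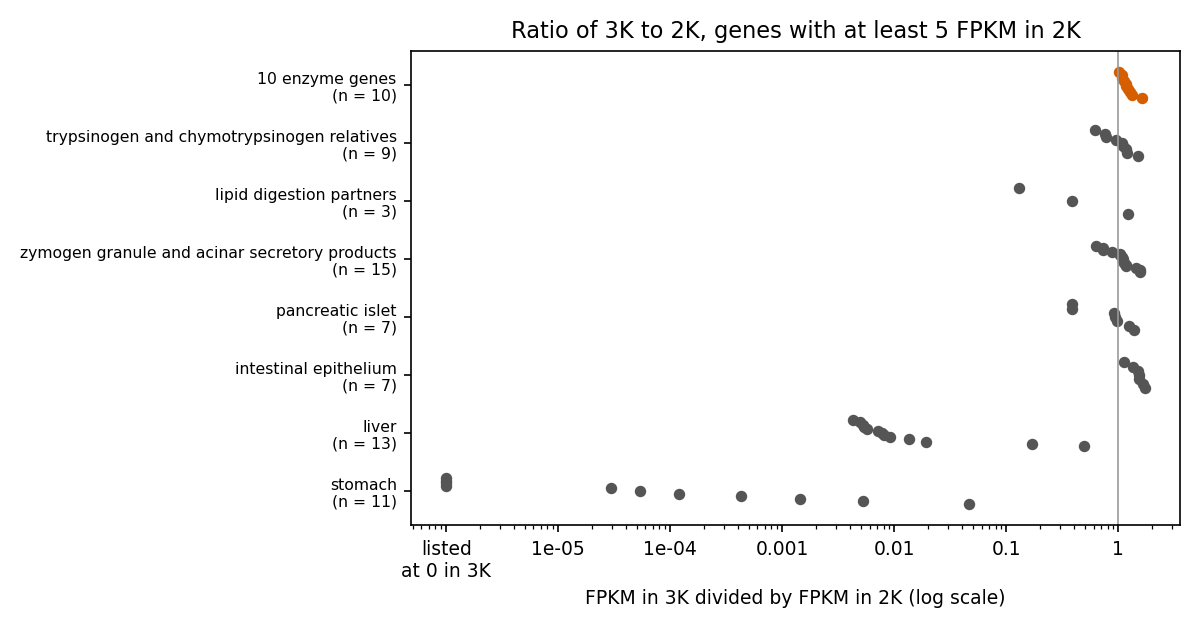
FPKM in 3K divided by FPKM in 2K (horizontal axis, log scale) for the genes of 8 groups with at least 5 FPKM in 2K; each point is 1 gene, the vertical line marks equal levels, and points at the left edge are listed at 0 in 3K. The 10 enzyme genes lie between 1.02 and 1.62, while liver and stomach genes lie to the left of 1.

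After the return to the normal diet the members were low. In 2KR against 2K all 10 were at least 2-fold lower, where 19.0% of all genes were. The median difference was -11.46 (-14.51 for Ctrb1 to -6.14 for Cela1), beside -0.10 over all genes. Pnliprp1 was 3726-fold lower in FPKM and Cela1 75.8-fold lower. In 3KR against 3K all 10 were lower, where 11.7% of all genes were, with a median of -10.48 (-11.61 to -6.25) beside 0.01. Here Ctrb1 was 3284-fold lower in FPKM, Pnliprp1 3225-fold, Prss2 2650-fold, Cela2a 1803-fold, Pnlip 640-fold and Cela1 79.8-fold. Each pair differs in day and diet as well as in the animals sampled, and these cannot be told apart.

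Within the low range, 1KR and 3KR held more of the enzyme transcripts than the other libraries. In 7 of the 10 members (Ctrb1, Prss2, Pnlip, Cpa1, Cela1, Cela2a and Cel) both 1KR and 3KR were above each of R, 1K, RR, 2KR and C. Of the 7 members that reached 1 FPKM in any of these 7 libraries, 6 did so (Cpa1 stayed below 1 FPKM), where 3.27% of all genes past that floor did. The pair of libraries was picked after the members' values were seen, so these counts are a description and carry no test. 3KR also had the lowest estimated depth and the highest summed FPKM, whose part in this was not tested. The exceptions were Pnliprp1, highest in C, and Cpb1 and Cela3b, for which 1KR was above all 5 and 3KR was not. Against RR, 5 members were at least 2-fold higher in 1KR (Ctrb1, Prss2, Pnlip, Cela2a and Cel), where 2.47% of all genes were. Their differences were 3.10 for Ctrb1, 1.87 for Prss2, 1.86 for Pnlip, 1.84 for Cela2a and 1.38 for Cel. In 3KR against RR 4 were higher, where 11.4% of all genes were: Ctrb1 by 3.81, Prss2 by 1.97, Cela2a by 1.99 and Pnlip by 1.55. Of the members that reached 5 FPKM in either library, 1 was higher in 1KR and 1 in 3KR.

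These levels were small beside those in 2K. In 1KR the members were at 0.0235% (Ctrb1) to 2.04% (Cela1) of their FPKM in 2K, and Pnlip was at 0.244%. In 3KR Ctrb1 was at 0.0398% and Pnlip at 0.182%. The values rest on few fragments, an estimated 127 of Ctrb1, 64.6 of Pnlip and 26.4 of Prss2 in 1KR, and 103, 23.0 and 13.9 in 3KR. Beside them, Ctrc, chymotrypsinogen C, was at 0.443 FPKM in 1KR and 0.653 in 3KR and listed at 0 in R, 1K, RR, 2KR and C. Of the 14 islet genes 6 reached 1 FPKM in 1KR or RR, and 0 of them were 2-fold higher or lower than in RR. In 3KR or RR 7 reached it, of which 2 were higher and 3 lower than in RR. Ppy, pancreatic polypeptide, was at 2.69 FPKM in 3KR and listed at 0 in 1KR and RR, while the insulin genes Ins1 and Ins2 were listed at 0 in all 3. Compared with RR, 1KR had 7 of the 13 liver genes higher and 0 lower by the 2-fold rule, 3KR 7 and 1, and 2KR 8 and 0. In 2KR the members were not 2-fold higher than in RR. RR itself was low in the liver genes. There 0 were higher and 8 lower than in R, where 5.29% of all genes were lower, and 0 and 11 than in C, where 5.81% were lower. The liver sum was 149.2 FPKM in RR, 221.5 in 1KR, 147.6 in 3KR and 301.1 in 2KR, beside 283.6 in R and 412.2 in C. Of all genes, 2.47% were higher than in RR in 1KR, 11.4% in 3KR and 2.67% in 2KR. The shares of all genes lower in 1KR and 3KR were not computed. The part of other tissue in the members' values was not tested. Cela1 was the member whose direction depended on the scaling here: its difference in 3KR against RR was 0.28 as deposited and -0.16 per summed FPKM.

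**Figure D4:**
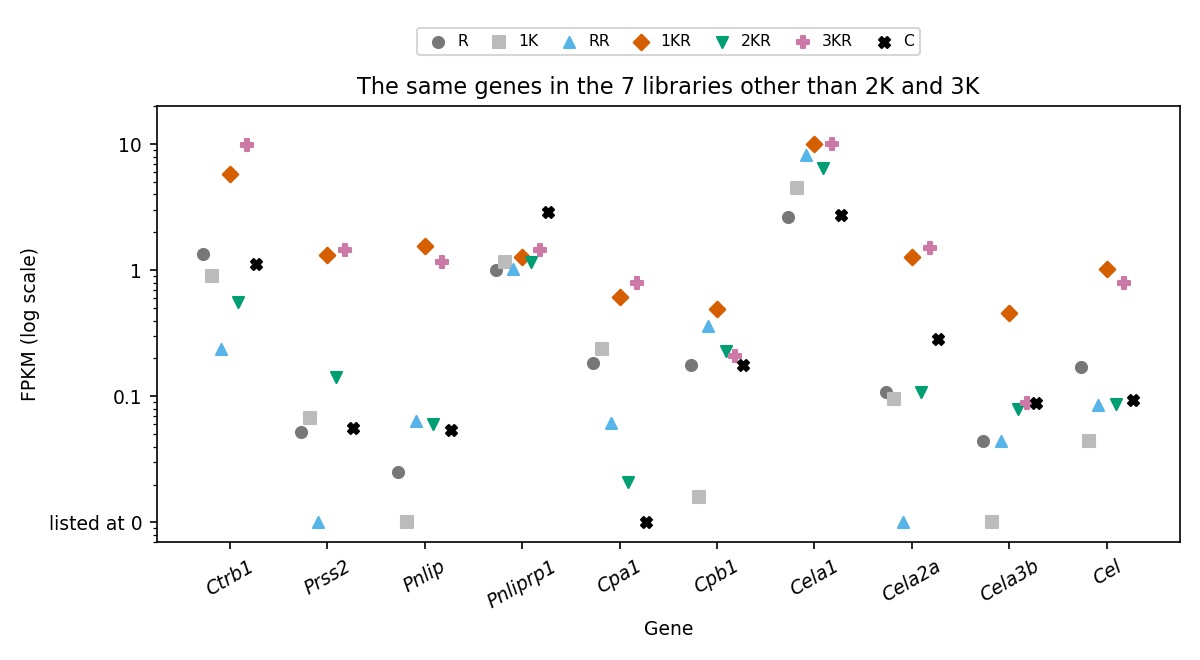
FPKM (vertical axis, log scale) of the 10 enzyme genes in the 7 libraries other than 2K and 3K; each symbol is 1 library, and values listed at 0 are drawn at the bottom. 1KR and 3KR, a pair picked after the values were seen, lie above the other 5 libraries in 7 of the 10 genes. Of the 7 enzyme genes that reach 1 FPKM in any of the 7 libraries, 6 do so, beside 3.27% of all genes past that floor. Pnliprp1 is highest in C.

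The 2KR library did not share this. Against RR, 0 of the 10 members were 2-fold higher or lower in 2KR, where 2.67% of all genes were higher and 3.67% lower. The members' differences ran from -0.31 (Cela1) to 0.52 (Ctrb1). Among libraries of the normal diet, RR against R had 1 member 2-fold higher (Cela1, 3.07-fold in FPKM) and 1 lower (Ctrb1, -1.33 on the log2 scale), where 5.42% of all genes were higher and 5.29% lower. R against C, with and without DSS, had 1 member lower (Pnliprp1), where 3.22% of all genes were lower. RR against C had 1 higher (Cela1, 2.97-fold in FPKM), where 6.71% of all genes were, and 2 lower (Ctrb1 and Pnliprp1), where 5.81% were. R and RR are each used in several of these comparisons, so the counts are not independent of each other.

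Other products of the acinar cell were compared list by list, by the median over all measured genes. Many of these genes reach 1 FPKM in 2K and 3K alone and so could be counted only as higher. The 14 trypsinogen, chymotrypsinogen and elastase relatives had a median difference of 4.57 in 2K against R and 4.18 in 3K against R. Of these, 2 were at 1 FPKM or more in R, 12 in 2K and 10 in 3K. The 3 partners of lipid digestion had medians of 5.32 and 3.96, and all 3 were at least 2-fold higher in both. The 5 carboxypeptidase relatives had medians of 0.00 and 0.11. Of these, Cpm was at 14.6 FPKM in R, 22.0 in 2K and 11.6 in 3K, and Cpe at 31.0, 21.3 and 33.5, so neither followed the members. Colipase (Clps), which anchors Pnlip to bile salt-coated fat, was at 2925 FPKM in 2K and 1137 in 3K but also at 7.46 (3KR) to 102 (2KR) in the others. Pla2g1b, the pancreatic phospholipase A2, was at 1046 in 2K, 135 in 3K and at most 0.356 elsewhere, so its 3K level was further from its 2K level than that of any member.

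Of 9 genes for starch and nucleic acid digestion, 6 were higher and 1 lower in 2K than in R, and 7 and 1 in 3K; 3 of the 9 reached 1 FPKM in R, and the medians were 4.19 and 4.31. The lower one was Dnase1, named after its values were seen. Rnase1, pancreatic ribonuclease, was at 621 FPKM in 2K and 928 in 3K. The Amy2 amylases, which are abundant acinar products, were far below the members: Amy2b was at 52.8 and 69.9 FPKM and Amy2a3 at 58.3 and 20.6. Amy1, another amylase, was at 65.8 and 39.4 FPKM and at 0.88 (1K) to 3.07 (C) elsewhere. The Amy2 genes are near-identical copies, so their fragments may be split or lost in counting. Of 15 granule and secretory genes, 11 were higher and 1 lower (Zg16, named after its values were seen) in 2K, and 10 and 1 in 3K, where 10 of the 15 reached 1 FPKM in R and the medians were 5.51 and 5.63. Reg2, a regenerating-family lectin of the pancreas, was at 5027 and 5394 FPKM, Gp2, the main glycoprotein of the zymogen granule membrane, at 1581 and 1652, and Sycn, a granule membrane protein, at 1072 and 1240. Sycn was also at 29.6 in 3KR, beside 0.116 (1K) to 1.875 (R) in the remaining libraries. Reg1 was at 2994 and 3070 but also at 413 in 1KR and 244 in RR. Spink1, the trypsin inhibitor stored with Prss2, did not follow the members: it was at 95.6 in 2K, 138 in 3K and 68.4 (3KR) to 323 (1K) elsewhere.

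Of 6 acinar transcription factors 3 were higher in 2K than in R and 0 lower, and 2 were higher and 1 lower in 3K. The medians were 0.77 and 0.50, and 4 of the 6 reached 1 FPKM in R. Ptf1a, the defining subunit of PTF1, was at 1.76 FPKM in 2K and 1.21 in 3K, at 0.026 in C, and listed at 0 in the remaining 6. Rbpjl, its partner, was at 1.49 and 1.64 FPKM and at most 0.144 elsewhere. Bhlha15, which drives granule formation and is also found in other secretory cells, was at 6.001 and 7.57 FPKM and at 1.58 to 5.61 elsewhere. The remaining factors did not follow the members. Nr5a2, the lower one, was at 15.4 and 11.6 FPKM, beside 25.95 in R. Gata4, higher in 2K, was at 63.9 and 35.2 FPKM and at 7.38 (3KR) to 70.9 (RR) elsewhere. Gata6 was at 41.2 and 34.1 FPKM and at 29.4 (3KR) to 88.1 (1K) elsewhere. Of 4 receptors for the signals that trigger enzyme release, 2 were higher in 2K and 1 in 3K. The one higher in both was Cckar, the cholecystokinin receptor of acinar cells, at 7.98 and 15.3 FPKM and at most 0.338 elsewhere. The other was Sctr, the secretin receptor (3.26 FPKM in 2K and 0.529 in 3K), named after its values were seen.

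The gut genes that act on the members' products were measured too. Tmprss15, enteropeptidase, which cuts trypsinogen, was at 26.6 FPKM in 2K and 12.7 in 3K. It was at 13.6 in 1KR, 3.65 in RR, 3.08 in 1K, 0.072 in 2KR, 0.030 in C and 0.016 in 3KR, and listed at 0 in R. It is a marker of the duodenum, and its level differed among libraries in which the members were similarly low. Cck, the hormone that releases the enzymes, was at 25.8 FPKM in 2K, 54.6 in 3K and 3.00 (3KR) to 33.0 (1K) elsewhere. Sct, secretin, was at 24.1 in 2K and 6.23 in 3K, the lowest of all, and at 25.8 to 41.4 elsewhere. Neither hormone had its 2 highest values in 2K and 3K.

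Markers of other cell types that share an organ with the members were set beside them in the plot of summed levels. Of 14 islet genes, 11 reached 1 FPKM in 2K or R, of which 8 were higher and 1 lower (Ucn3). In 3K 6 were higher and 1 lower. The islet sum was 697.9 FPKM in 2K, 583.4 in 3K and 73.45 to 458.8 elsewhere. The highest of the other libraries was 1K, where Slc2a2, a glucose transporter that enterocytes also make, was at 357 FPKM (named after its values were seen). Ins2 was at 342 FPKM in 2K and 322 in 3K, at 0.117 in R and listed at 0 in the other 6. Ins1 was at 59.8 and 54.2, at 0.040 in C and listed at 0 in the other 6. Of 8 duct genes 2 were higher (Car2 and Onecut1) and 1 lower (Cftr) in 2K, and 1 was higher (Car2) and 2 lower (Cftr and Sox9) in 3K. The medians were -0.18 and -0.72. Car2 was at 130 FPKM in 2K and 8.89 in 3K, beside 2.45 in R, 9.21 in 1K, 14.1 in 1KR and 84.1 in 3KR. Onecut1 was at 8.52 FPKM in 2K and 0.693 in 3K. Neither gene followed the members. By the 2-fold rule, the 2K library exceeded R in all 11 stomach and all 13 liver genes. The 3K library did so in the 1 stomach gene that reached 1 FPKM in 3K or R. Among the 13 liver genes, 3K passed that rule upward in 2 and downward in 2, and the median difference was 0.65. Tff1 was at 8134 FPKM in 2K and listed at 0 in 3K. Of 7 intestinal epithelial genes 0 were higher and 5 lower in 2K, and 0 and 2 in 3K. Whether the members' transcripts were made in pancreatic tissue collected with the gut or in the gut itself cannot be told apart from these values.

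**Figure D5:**
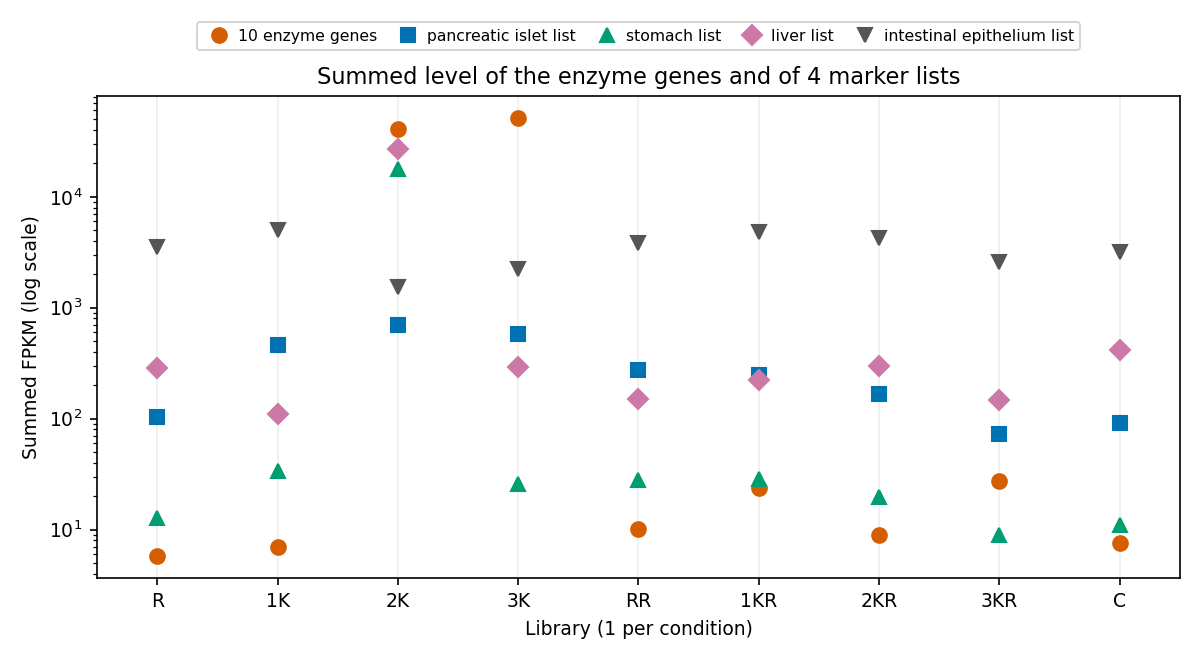
Summed FPKM (vertical axis, log scale) of the 10 enzyme genes and of 4 marker lists in each of the 9 libraries (horizontal axis, 1 library per condition). The enzyme sum is high in 2K (41143) and 3K (51201), the stomach and liver sums are high in 2K alone, and the intestinal epithelial sum is lowest in 2K (1538) and 3K (2228).

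Genes outside the set were ranked by how closely their log2(FPKM + 0.5) profile over the 9 libraries, centered on its own mean, followed the mean profile of the members. Among 13372 genes with at least 5 FPKM in any library, the 9 nearest were Try4, 2210010C04Rik, Try5, Reg2, Ins2, Gp2, Ctrc, Ctrl and Pla2g1b, at root mean square distances of 0.18 to 1.04. All 9 were on the lists described above, and Ins2, at 0.83, was the one that is not an acinar product. The members themselves were at 0.09 (Cel) to 1.82 (Cela1) from their mean, so Ctrb1 (1.36) and Cela1 were further from it than these 9 genes. The likeness rests on 2 high libraries of 9.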

How the data were processed

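Total RNA from mouse intestinal tract was sequenced in 9 libraries. Per the labels' protocols, RNA was extracted with ISOGEN, ribosomal RNA was depleted and stranded libraries were made without mRNA selection. HISAT2 (version not stated), Cuffdiff 2.2.1 and the build GRCm38 are named in the submitters' processing notes; the sources used here do not state the annotation. The authors deposited 1 table of FPKM for 55468 genes, per the file headers. It holds no read counts, so fragments were estimated from the steps between low FPKM values and single-transcript lengths: of 20 non-zero member values under 3.5 fragments, 16 were within 0.1 of a whole number. No counting interval is given. FPKM depends on what else was sequenced, so abundant genes lower the values of all others.

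Values were compared as log2(FPKM + 0.5) in 12 pairs of libraries. A gene was counted when it reached 1 FPKM on either side and was at least 2-fold apart. Gene positions came from GENCODE M21, which holds 55227 of the 55468 identifiers, and promoters from RefSeq. The 14 gene lists hold 117 distinct genes, of which 1 (Gif) was not found in the table. The members, lists and rules were chosen with earlier results of these data known. The text names the 10 members, up to 4 genes per list with the largest difference in 2K or 3K against R among those reaching 5 FPKM, 8 genes tied to the members' biology, and the 10 genes of nearest profile; 1 gene under this rule is not reported here. Scripts ran in Python 3.11.15 with pandas 2.3.3, numpy 2.4.6 and Biopython 1.88 and were tested on simulated data. Alternatives were other pseudocounts, floors, scalings and a correlation in place of the distance.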

Additional observations from a re-analysis of the deposited data

How the results depend on the processing

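Of 230 values recomputed under other settings, 212 moved by no more than 1.5-fold, 18 moved further and 0 changed sign. For a median log2 difference this fold is that of its shift on the unlogged scale, and for a count it is the ratio. With a pseudocount of 1 FPKM the members' median log2 difference was 10.56 in 2K against R, 10.71 in 3K against R and -10.64 in 2KR against 2K. With 0.1 FPKM it was 12.39, 12.64 and -13.02, and -11.19 in 3KR against 3K, 2.37 in 1KR against RR and 2.36 in 3KR against RR. A pseudocount of 1 FPKM, or a floor of 5 FPKM, left 0 members lower in RR against R, R against C and RR against C. The floor of 5 FPKM left 1 member higher in 1KR against RR and 1 in 3KR against RR. Ranking by Pearson's r kept 6 of the 10 nearest genes. Scaling to the summed FPKM moved the median of all genes from 0.03 to -0.38 in 3KR against RR, and from 0.01 to -0.49 in 3KR against 3K. No paired analysis was possible because each condition has 1 library, and no library could be left out within a condition. The size of any difference below about 1 FPKM rests on few fragments.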
